A study of Mus musculus with 3 samples.

Results

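The hairpins of Mir99b, Mirlet7e and Mir125a lie next to each other on the plus strand of mouse chromosome 17. Their reads were taken as every plus-strand alignment with its 5′-start inside a window around the 3 hairpins, which held 1545, 1691 and 1524 distinct alignments of the 1007929, 1095335 and 1036409 deposited for libraries 1, 2 and 3. The 6 mature arms of these hairpins were among 315 mature miRNA arms that could be named in the files. Small RNA was sequenced from 3 libraries of MIN6, a mouse cell line from an insulinoma, which is a pancreatic tumor of beta cells, the cells that secrete insulin. All libraries belong to 1 condition, cells in medium with 25 mM glucose, labelled high glucose, and the study calls them biological replicates. There is no second condition to compare with, so values are given per library and as mean ± SD (n = 3), with no test. An insulinoma line differs from primary beta cells in that it divides without limit.

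The libraries held 9269795, 10816006 and 10218743 mapped reads. Expression is given as RPM, the number of reads scaled to a common total of mapped reads, and 0 reads in a library allow up to 3 reads, which is 0.324 RPM at the lowest depth. The label of the cells was checked on miR-375-3p, the miRNA most used as a mark of beta and other islet endocrine cells, which was the most abundant named arm with 345171, 368891 and 383009 RPM. It was placed at the most abundant start of its chromosome and strand, so its abundance was used in placing it. The islet miRNA miR-7a-5p had 451, 469 and 384 RPM. The liver, blood, endothelial and smooth muscle markers of the list (miR-122-5p, miR-451a, miR-142a-3p, miR-126a-3p, miR-143-3p and miR-145a-5p) were not placed in the files by the naming used here, so they give no value.

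A miRNA gene is transcribed into a long primary transcript in which the miRNA forms one side of a hairpin. The nuclease Drosha cuts the hairpin out of the transcript, Dicer removes its loop, and usually only 1 of the 2 strands left, from the 5p or the 3p arm, is kept by an Argonaute protein while the other is degraded. The kept strand finds its target mRNAs mainly through its seed, bases 2 to 8, so a shift of the 5′-start changes the targets while a change at the 3′-end mostly does not. Enzymes can add bases that are not in the genome to the 3′-end of a miRNA. A miR-99/100 gene, a let-7 gene and a miR-125 gene stand in this order at several places in vertebrate genomes, and the cluster of miR-99b, let-7e and miR-125a is one of them. let-7 miRNAs are known for rising as cells differentiate, and the miR-99 and miR-125 families for roles in growth signalling and in blood cell development.

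The 6 mature sequences are shown because each result below refers to one of their ends or to their seeds. They are printed as RefSeq gives them for GRCm38.p6, from the 5′-end to the 3′-end, with the seed in capitals.
miR-99b-5p: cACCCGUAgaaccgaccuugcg
miR-99b-3p: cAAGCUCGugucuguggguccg
let-7e-5p: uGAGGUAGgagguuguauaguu
let-7e-3p: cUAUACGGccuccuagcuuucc
miR-125a-5p: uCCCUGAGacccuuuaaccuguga
miR-125a-3p: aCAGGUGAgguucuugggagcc
The 3 seeds of the 5p arms differ, so the cluster makes miRNAs of 3 seed families from 1 place. In the coordinates of the files, which are mm9 per the processing notes of the submitters, the 5p arms lie at chr17:17967158-17967179 for miR-99b, chr17:17967330-17967351 for let-7e and chr17:17967781-17967804 for miR-125a. The 3p arms lie at chr17:17967196-17967217, chr17:17967375-17967396 and chr17:17967819-17967840 in the same order. The distances of the other 5 arms from the start of miR-99b-5p, which are 38, 172, 217, 623 and 661 nt in the files, were the same in GRCm38. In the GRCm38 annotation the cluster lies inside Spaca6, a gene for a sperm protein needed for fertilization, on the same strand. The arms of miR-99b and let-7e are intronic in the 2 Spaca6 transcripts that span them. Both arms of miR-125a are intronic in 2 transcripts and overlap an exon of the third.

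The window held 384262, 446482 and 330821 reads in libraries 1, 2 and 3. This is 4.15%, 4.13% and 3.24% of the mapped reads, or 3.84 ± 0.519% (SD, n = 3). Library 3 was the lowest, and the other two were alike. The 3 genes contributed unequally, since the reads of miR-99b-5p made up 81.7 ± 1.05% of the window, those of miR-125a-5p 16.9 ± 0.923% and those of let-7e-5p 1.01 ± 0.235% (SD, n = 3). Reads outside the arms and outside the fragments described below came to 18.3, 16.4 and 14.9 reads per library. No read lay on the minus strand in any library, where the annotation has the antisense gene Gm25927 opposite Mirlet7e.

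miR-99b-5p was the 4th most abundant of the 315 named arms. It had 34097, 33679 and 25964 RPM at its reference start, or 31246 ± 4580 RPM (SD, n = 3). Libraries 1 and 2 lay close together, and library 3 was lower at 0.766 times their mean, counted over all starts of the arm. The 95% Wilson interval in library 3, 25866 to 26061 RPM, is far from that of library 2, 33571 to 33786 RPM, so the gap exceeds counting error. Such intervals describe counting error alone, because PCR copies of a molecule could not be recognized.

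miR-125a-5p had 6694, 6766 and 5779 RPM at its reference start, or 6413 ± 550 RPM (SD, n = 3), and ranked 15th over all starts. Library 3 was again the lowest, at 0.859 times the mean of libraries 1 and 2. The ratio of miR-99b-5p to miR-125a-5p was 5.09, 4.98 and 4.49, so these neighbours kept nearly the same proportion in libraries 1 and 2.

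let-7e-5p was far less abundant, with 319, 512 and 321 RPM at its reference start, or 384 ± 111 RPM (SD, n = 3). Over all starts it ranked 73rd. Libraries 1 and 3 were alike and library 2 was higher, at 1.59 times their mean, counted over all starts. The ratio of miR-99b-5p to let-7e-5p over all starts was therefore 106, 65.5 and 80.2. The coefficient of variation was also taken over all starts, among the 138 named arms with a mean of at least 100 RPM. That of let-7e-5p, 28.6%, was exceeded by that of 1 arm, against a median of 7.31%. The same value was 14.6% for miR-99b-5p and 8.58% for miR-125a-5p.

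The 3p arms were much rarer and stood in another proportion. miR-99b-3p had 72.4, 65.9 and 73.2 RPM at its reference start, miR-125a-3p 23.6, 20.3 and 18.9 RPM, and let-7e-3p 15.3, 13.3 and 14.97 RPM. Their ranks over all starts were 151, 191 and 216. Over all starts, miR-99b-3p was 4.15, 4.17 and 4.37 times as abundant as let-7e-3p, so the 3p arms of these hairpins differed about as much in each library, whereas their 5p arms differed by 65.5 to 106 times.

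**Figure D1:**
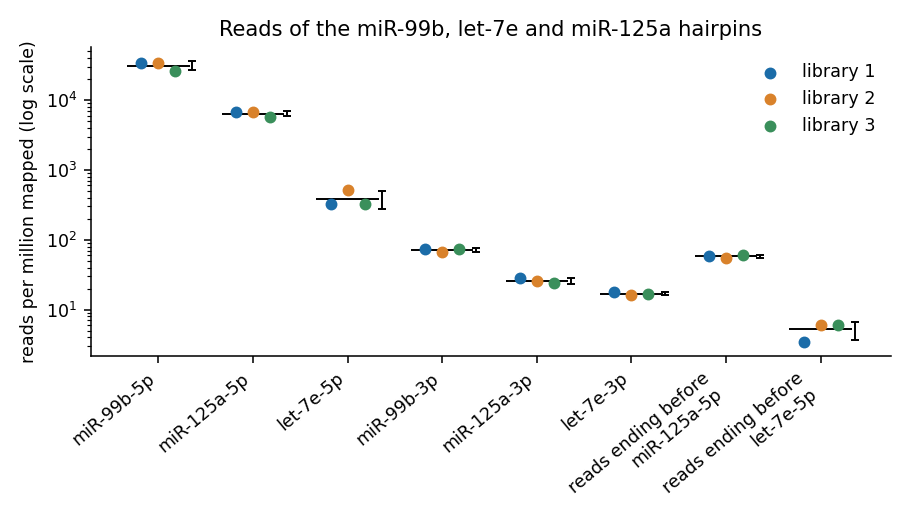
RPM (vertical axis, log scale) over all starts of each arm, and of the fragments that end directly before 2 of the 5p arms (horizontal axis). Points are libraries 1 to 3, the black line is their mean and the bar beside it the SD. The 5p arms spread from 388 RPM for let-7e-5p to 31365 RPM for miR-99b-5p, and the 3p arms from 16.8 to 71.2 RPM.

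Most reads of each hairpin came from the 5p arm. Its share was 99.8%, 99.8% and 99.7% for Mir99b and 99.6%, 99.6% and 99.6% for Mir125a. For Mirlet7e it was 94.8%, 97.0% and 95.1%, or 95.6 ± 1.20% (SD, n = 3), and the Wilson interval of library 2, 96.5 to 97.4%, lay above those of libraries 1 and 3, which reached 95.7% at most. Over 115 hairpins with both arms named, the more abundant arm held a median of 93.6% of the reads, and 11 of them were more one-sided than miR-99b.

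The library differences of miR-99b-5p and let-7e-5p were not seen on their 3p arms. In library 3 the level of miR-99b-3p was 1.05 times its mean in libraries 1 and 2, where miR-99b-5p was at 0.766 times. In library 2 let-7e-3p was at 0.924 times its mean in libraries 1 and 3, where let-7e-5p was at 1.59 times. The number of let-7e-3p reads was small, 164, 172.5 and 172, and its Wilson intervals overlapped in all libraries. As a result the ratio of 5p to 3p reads was 18.3, 32.3 and 19.3 for let-7e and 467, 508 and 354 for miR-99b. It was 234, 266 and 244 for miR-125a. Among 61 hairpins with at least 100 reads on each arm in every library, the coefficient of variation of this ratio ranked 2nd for let-7e at 33.7%, 7th for miR-99b at 17.95% and 39th for miR-125a at 6.60%, against a median of 9.19%.

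Nearly all reads of the 5p arms began at the reference start, so their seeds were those printed above. The share of the arm at that start was 99.6 ± 0.0128% for miR-99b-5p, 98.9 ± 0.240% for let-7e-5p and 99.6 ± 0.00751% for miR-125a-5p (SD, n = 3). Over the 70 named 5p arms with at least 100 RPM the median was 99.2%. The 3p arms were less uniform, apart from miR-99b-3p with 99.1 ± 0.397% (SD, n = 3). For miR-125a-3p, 82.3%, 79.7% and 79.4% of the reads began at the reference start and 17.7%, 19.9% and 18.9% began 1 base downstream. For let-7e-3p these shares were 86.6%, 83.5% and 89.0% at the reference start and 9.15%, 11.01% and 5.81% 1 base downstream. These +1 forms were the only shifted starts in the cluster with at least 1% of the reads of their arm in every library. They change the seed from CAGGUGA to AGGUGAG in miR-125a-3p and from UAUACGG to AUACGGC in let-7e-3p. Both are rare molecules, since the +1 form of miR-125a-3p had 4.89 ± 0.333 RPM and that of let-7e-3p 1.45 ± 0.415 RPM (SD, n = 3).

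**Figure D2:**
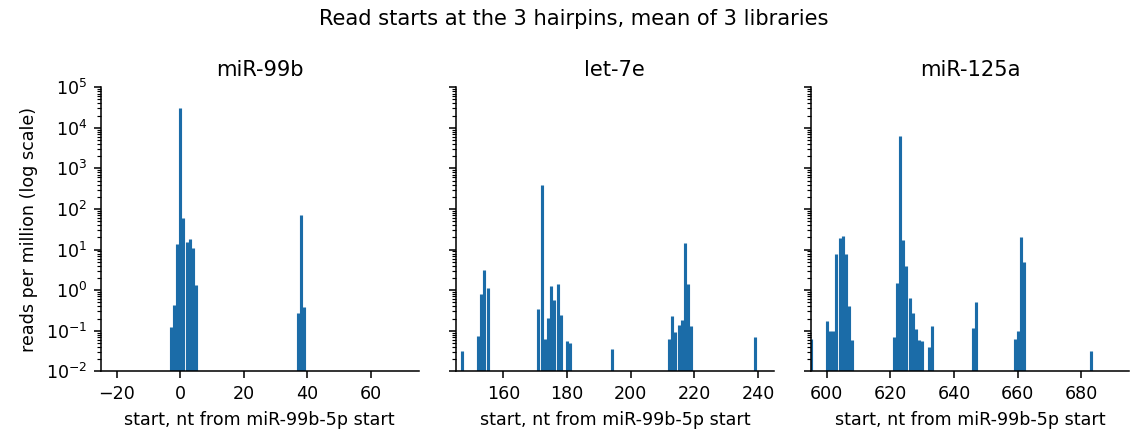
Mean RPM over the 3 libraries (vertical axis, log scale) of reads by their 5′-start, in nt from the start of miR-99b-5p (horizontal axis), at each hairpin. The tallest line of each panel is the 5p arm, and the 3p arms stand at 38, 217 and 661 nt. A further group of starts lies upstream of let-7e-5p and of miR-125a-5p and is missing upstream of miR-99b-5p.

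That group consists of fragments that end exactly 1 base before a 5p arm starts, where Drosha cuts, and such fragments are called miRNA-offset RNAs. Upstream of miR-125a-5p there were 544, 591 and 624 reads of this kind, or 58.7, 54.6 and 61.1 RPM. Of all reads that began 10 to 30 nt upstream of miR-125a-5p, 100%, 99.8% and 99.8% ended at that base. The offset fragment was more abundant than the 3p arm of its own hairpin in every library, at 2.05, 2.14 and 2.57 times miR-125a-3p. Among 169 named 5p loci it was the most abundant fragment of its kind, ahead of that of miR-384-5p with 274, 307 and 334 reads, and 19 loci had at least 10 such reads in every library.

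Upstream of let-7e-5p there were 32.0, 65.3 and 62.25 such reads, or 3.45, 6.04 and 6.09 RPM, which ranked 10th. Library 1 was lowest here, while let-7e-5p itself was highest in library 2 alone. Upstream of miR-99b-5p, by far the most abundant arm of the cluster, there was no such read in any library. The amount of offset fragment did not follow the level of the miRNA beside it. The fragments of miR-125a were mostly 18 nt long (22.2 ± 2.42 RPM) or 19 nt long (19.4 ± 2.31 RPM), and those of let-7e mostly 18 nt (3.13 ± 0.761 RPM) (SD, n = 3). The 18-nt forms are shown to place them directly against the mature arms. Their letters come from GENCODE transcripts of GRCm38, one of Spaca6 for miR-125a and the reverse complement of one of Gm25927 for let-7e.
offset of miR-125a-5p, chr17:17967763-17967780: acacugccggccucuggg
offset of let-7e-5p, chr17:17967312-17967329: cugccgcgccccccgggc
Both spans are in the coordinates of the files, on the plus strand. Read mismatches fell on 15 positions of the former and 5 of the latter, and none of them contradicted the printed base.

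miR-99b had a fragment of another kind. Reads of 38 nt that began at the start of miR-99b-5p and ended at the base before miR-99b-3p, so covering the 5p arm and the loop, came to 326, 346 and 283 reads, or 35.2, 32.0 and 27.7 RPM. Reads of 39 nt added 63, 73 and 67, of which 61, 71 and 64 carried a mismatch. In the 38-nt reads the last base differed from the genome in 23.3%, 23.7% and 20.5%. The 38-nt form was present at 0.479, 0.481 and 0.376 times the level of miR-99b-3p. Of 114 named 5p loci whose 3p arm starts at most 41 nt downstream, the longest read in the files, this was the most abundant fragment of its kind. Only miR-409-5p, with 95, 156 and 169 reads, and miR-93-5p, with 54, 50 and 69 reads, also reached 10 reads in every library. The arms of miR-125a start at the same distance of 38 nt, and there no such read was found in any library. In let-7e the distance is 45 nt, longer than any read in the files, so such a fragment was not detectable.

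Each 5p arm was compared with the named miRNAs that share its seed. miR-99b-5p made up 99.8% of the reads of its seed family in every library, since miR-99a-5p had 58.2, 58.9 and 48.3 RPM and miR-100-5p 0.809, 1.16 and 0.734 RPM. miR-99a-5p differs from miR-99b-5p at 4 bases, C1A, A11U, C16U and C21U (base of miR-99b-5p, position from 1 at the 5′-end, base of the relative). miR-125a-5p made up 96.3%, 96.3% and 96.7% of its family, and miR-125b-5p the rest with 259, 260 and 197 RPM. Of the miR-125b-5p reads, 33.1% had whole-number values, because the 2 miR-125b loci share them. The relative miR-351-5p was not placed. Among the placed members of both families, the member from this cluster was therefore the main carrier of the seed.

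let-7e-5p was a minor member of its family. It made up 1.02%, 1.34% and 0.946% of the reads of the named let-7 and miR-98 arms. let-7c-5p held 31.6 ± 2.85%, let-7f-5p 19.6 ± 1.68%, let-7i-5p 17.7 ± 2.15% and let-7a-5p 12.4 ± 0.458% (SD, n = 3). The other members, let-7b-5p, let-7g-5p, miR-98-5p and let-7d-5p, held between 1.64% and 7.75%. Whole-number values made up 43.7% of the reads of let-7c-5p, 56.8% of let-7a-5p and 78.0% of let-7f-5p. Part of the levels of these 3 arms therefore rests on reads divided among loci.

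The higher level of let-7e-5p in library 2 was shared by part of this family. The level in library 2 over the mean of libraries 1 and 3 was 1.59 for let-7e-5p, 1.47 for let-7b-5p and 1.36 for let-7c-5p, which were the highest 3 of the 138 named arms, whose median was 0.975. It was 1.18 for let-7a-5p, 1.12 for let-7g-5p, 1.11 for let-7d-5p, 1.03 for miR-98-5p, 1.01 for let-7f-5p and 0.945 for let-7i-5p. The 9 named 3p arms of the family lay between 0.790 and 1.11. Of these, let-7a-1-3p had 254.6, 276 and 243.5 reads and let-7c-2-3p 254.6, 277 and 243.5, so these arms may not be separate measurements. The distance of 3-library profiles (root mean square of centred log2 RPM) placed let-7b-5p, let-7c-5p and let-7a-5p closest to let-7e-5p, at 0.0585, 0.119 and 0.222, with a median of 0.347 over 137 arms. By the same measure miR-125b-5p, miR-871-3p and miR-15b-5p were closest to miR-99b-5p, at 0.0113, 0.0326 and 0.0425, and miR-183-5p, miR-96-5p and miR-7a-5p to miR-125a-5p, at 0.0101, 0.0204 and 0.0258. With 3 libraries these distances are only a description, and those to let-7c-5p, let-7a-5p and miR-125b-5p rest partly on divided reads.

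**Figure D3:**
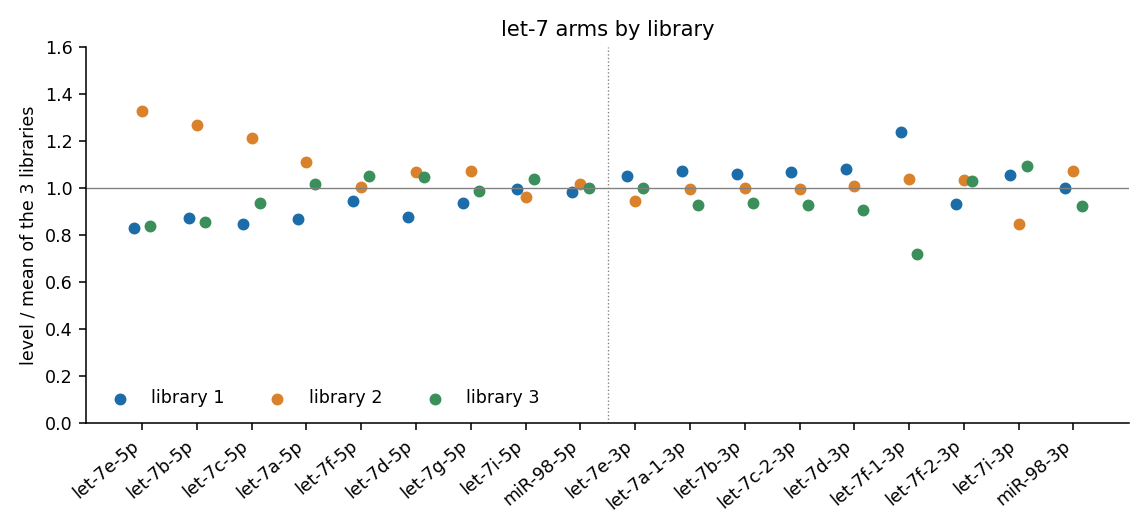
Level of each let-7 arm in each library, as RPM divided by its mean over the 3 libraries (vertical axis), with 5p arms left of the dotted line and 3p arms right of it. In library 2 let-7e-5p, let-7b-5p and let-7c-5p stand highest, and let-7e-3p does not.

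let-7e-5p differs from let-7a-5p at a single base, G9U, so a let-7a read with G in place of U at that base would be counted as let-7e. In the named relatives let-7b, c, d, f, g, i and miR-98, which also have U at base 9, this substitution (T9G in the files) was found in 0.0119 to 0.0874% of the reads at the reference start, where reads that match let-7e equally well are divided. The highest of these rates rests on 4 reads of let-7d-5p in library 1. At that rate let-7a-5p would give 30.3, 45.1 and 39.1 reads, which is 1.02%, 0.815% and 1.19% of the let-7e-5p reads. Whole-number values made up 96.0%, 97.2% and 94.6% of the let-7e-5p reads. With reads without any mismatch alone, let-7e-5p had 243, 391 and 249 RPM, and library 2 was at 1.59 times the mean of the other two. A let-7a read with G at base 9 has the sequence of let-7e-5p, so neither whole-number values nor reads without mismatch can show or remove such reads.

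The 3 miRNAs differed in length. At the reference start, 60.9 ± 0.328% of miR-99b-5p reads were 22 nt long, 21.3 ± 0.373% were 21 nt and 13.7 ± 0.0535% were 23 nt (SD, n = 3). let-7e-5p was similar, with 67.4 ± 1.67% at 22 nt, 16.7 ± 0.517% at 21 nt and 10.9 ± 0.966% at 23 nt (SD, n = 3). miR-125a-5p had 2 peaks, 54.3 ± 2.26% at 24 nt and 26.1 ± 1.52% at 22 nt, with 11.3 ± 0.579% at 23 nt between them (SD, n = 3). The mean length of reads up to 27 nt was 21.9 nt for miR-99b-5p, 21.96 nt for let-7e-5p and 23.3 nt for miR-125a-5p in the mean of the libraries. The lengths of miR-99b-3p were spread more widely, with 15.6% at 20 nt, 20.6% at 21 nt, 22.2% at 22 nt and 19.3% at 23 nt.

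**Figure D4:**
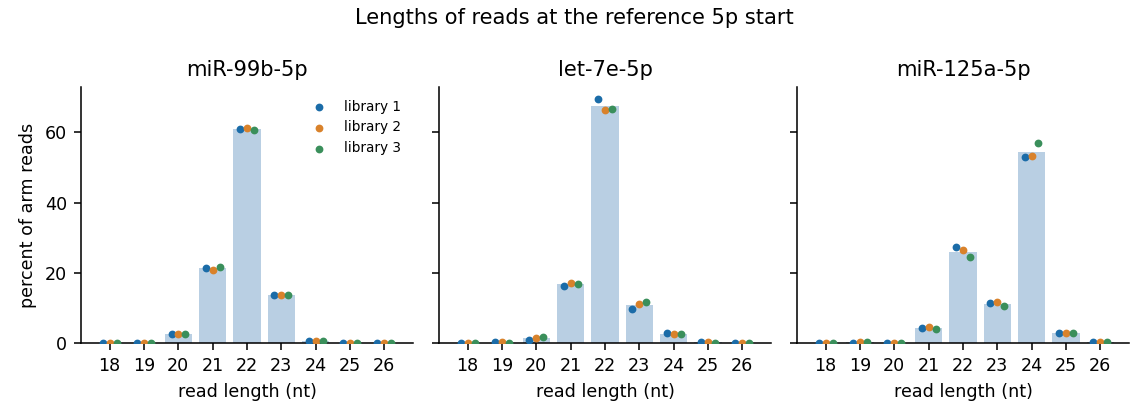
Share of the reads at the reference start (vertical axis, percent) by read length in nt (horizontal axis) for the 3 5p arms. Bars are means of the libraries and points single libraries. miR-99b-5p and let-7e-5p peak at 22 nt, and miR-125a-5p peaks at 24 nt with a smaller peak at 22 nt.

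The last base of a read was called mismatched where it differed from the genome, which is how non-templated additions appear in such data. This share was 15.1%, 15.2% and 15.1% in miR-99b-5p, or 15.1 ± 0.0404% (SD, n = 3), and hardly varied between libraries. It was 7.84 ± 0.374% in let-7e-5p and 24.4 ± 0.798% in miR-125a-5p (SD, n = 3). Over the 138 named arms with at least 100 RPM the median was 8.32%, and 17 arms were higher than miR-125a-5p, 42 higher than miR-99b-5p and 72 higher than let-7e-5p. For let-7e-5p the share was 5.38% when only whole-number values were used. On the 3p arms, which had few reads, it was 42.7% for miR-99b-3p, 36.7% for let-7e-3p and 5.37% for miR-125a-3p.

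The mismatched last bases differed between the arms. In miR-99b-5p the mismatched last base was U in 11.8% of all reads and A in 3.27%, C in 0.0885% and G in 0.00666%. A U after the full 22 nt was the most frequent form, with 10.7 ± 0.0542% of the reads (SD, n = 3). Of the 23-nt reads of miR-99b-5p, 78.3% ended in a mismatched U, 21.02% in a mismatched A and 0.294% in the genome base, so the 23-nt form nearly always carried a mismatch at its end. let-7e-5p showed the same order, with U in 5.73% and A in 1.82%, but 54.0% of its 23-nt reads ended in the genome base. On the 3p arms U was again the most frequent, in 30.3% of miR-99b-3p and 35.6% of let-7e-3p reads, and miR-99b-3p also had A in 11.8%.

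miR-125a-5p was different in that G and C were common beside U. The mismatched last base was U in 10.8%, 10.4% and 9.77% of its reads, G in 6.93%, 7.48% and 7.85%, and C in 4.62%, 5.27% and 6.09%. Only miR-375-3p had a higher share of G among the 138 arms, and only miR-455-3p and miR-331-3p had a higher share of C. The medians over the arms were 0.192% for G and 0.217% for C. Most of these reads were 24 nt long and differed only at base 24, which is A in the genome. Of the 24-nt reads, 62.9 ± 0.820% ended in this A, 14.3 ± 1.29% in U, 13.4 ± 0.504% in G and 9.51 ± 1.01% in C (SD, n = 3). Reads of 25 nt were 3.01 ± 0.0422% of the total (SD, n = 3), and 69.4% of them ended in a mismatched U, 25.2% in a mismatched A and 0.730% in the genome base. At 24 nt, the alignments cannot tell a base added to a 23-nt miRNA from a base exchanged at position 24. miR-125b-5p, which ends in the same 4 bases, GUGA, had the 3rd highest share of G at 6.91%. Of its 22-nt reads, 10.3 ± 1.08% ended in G and 6.91 ± 1.09% in U, but 0.410 ± 0.0759% ended in C (SD, n = 3).

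**Figure D5:**
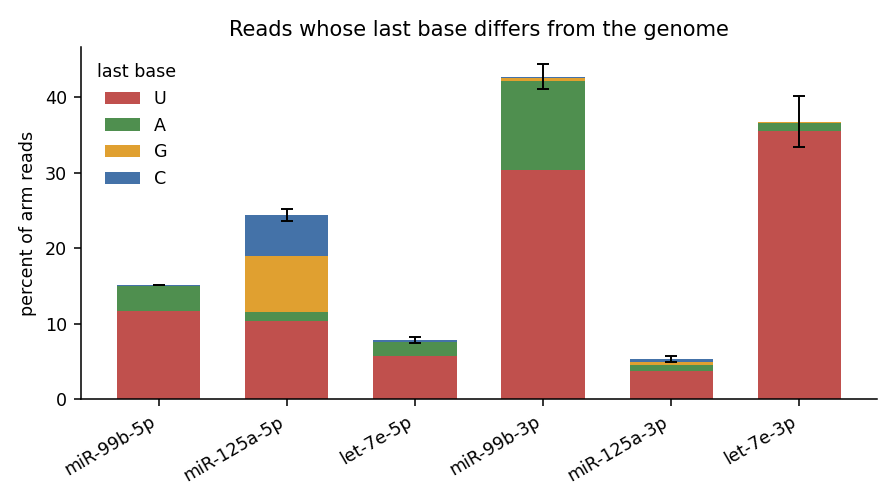
Share of the reads of each arm whose last base differs from the genome (vertical axis, percent), split by that base. Bars are means of the 3 libraries and error bars the SD of the total. In miR-125a-5p G and C are common beside U, and U is the most frequent base in every arm.

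Mismatches inside the reads were also counted. The most frequent was A10C, in 11.6%, 12.7% and 11.4% of miR-99b-5p and 13.3 ± 1.32% (SD, n = 3) of let-7e-5p reads. The same mismatch at base 10 had a median of 12.6% in the 28 other named arms with A at this base, so neither arm stood apart. In miR-99b-5p, A11C followed with 5.21%, below the median of 7.87% in 22 other arms, and C13A with 2.00%, 1.01% and 2.63%, which was exceeded by 2 of 31 other arms with C at base 13. In miR-125a-5p, A9C had 2.83%, near the median of 2.70% in 24 other arms with A at this base, of which 7 were higher. A17C had 2.16%, against a median of 1.29% in 23 other arms, of which 4 were higher. In let-7e-5p, A19G with 0.429% and G12A with 0.253% were higher than in any of the 25 and 37 other arms with these bases, whose highest values were 0.118% and 0.0477%. These are bases at which let-7e-5p differs from relatives, since let-7b-5p and let-7c-5p have G at base 19 and let-7f-5p has A at base 12. The A-to-G mismatch, which is how adenosine-to-inosine editing is read, was rare within the seeds of the 5p arms. At base 7 (A7G) it was found in 48, 51 and 36 reads of miR-125a-5p, or 0.0774%, 0.0697% and 0.0610%, and in 3, 2 and 0 reads of let-7e-5p, where the 3 reads make 0.101%, the highest share of this kind in a library.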

How the data were processed

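Per the study's methods, adaptors were trimmed with cutAdapt, reads of 14 to 41 nt were aligned to the genome without mismatches with Bowtie, and the remaining reads were aligned with mismatches near these loci with SHRiMP2. The authors deposited expected counts, which give how many reads share an alignment, where a read with several equally good loci is divided among them. They are not normalized and replicates were not pooled. Levels of different miRNAs also depend on how well each is cloned, which was not corrected.

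From these files, starts, ends, lengths and mismatches were computed with Python 3.11.15, numpy 2.4.6 and pandas 2.3.3, and plots with matplotlib 3.10.9. Exact alignments end 1 base early and were corrected. Since no mm9 genome was used here, an arm was named where at least 15 reads began and the bases excluded by read mismatches gave 20 bits for its RefSeq sequence (reversed sequences named 0 loci), or from its spacing to a named arm on the same chromosome. The naming placed 341 loci, 160 by sequence and 180 by spacing. The reversed sequences and a test on simulated data covered the naming by sequence only, not that by spacing. miR-375-3p was placed at the most abundant start of its chromosome and strand, where its hairpin sequence had to match. An arm holds the starts within 5 nt of its reference start. The starts of the 3 5p arms were checked against the study's own table.

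All libraries belong to 1 group, so no test was made. Named miRNAs are the arms of the 3 hairpins, starts with at least 1% of an arm in every library, relatives with the same seed, and the 3 arms of at least 100 RPM with the nearest profile. Members and lists were chosen with earlier results of these data known. The alternatives were exact reads, whole-number values, other read lengths, denominators or starts, the last 2 bases, and leaving out each library.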

Additional observations from a re-analysis of the deposited data

How the results depend on the processing

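No paired analysis was possible because there is 1 group, with no other group to pair it with. Of 39 values under processing alternatives of 12 results, 26 moved by less than the SD between libraries. With reads at named miRNA arms as denominator, miR-99b-5p had 41766 RPM, let-7e-5p 513 RPM and miR-125a-5p 8573 RPM, because this denominator is smaller. With whole-number values only, miR-99b-5p had 36709 RPM and miR-125a-5p 7530 RPM. let-7e-5p also rose, to 434 RPM, by less than its SD. With reads of 16 to 27 nt only, miR-125a-5p had 7299 RPM. In this setting miR-99b-5p also rose, to 35516 RPM, and let-7e-5p to 437 RPM, each by less than its SD. With exact reads only, the 5p share was 99.8% for Mir99b and 99.5% for Mir125a. With reads of 20 to 24 nt only, the share at the reference start was 99.7% for miR-99b-5p and for let-7e-5p and 99.6% for miR-125a-5p. With either of the last 2 bases counted, the terminal mismatch of miR-99b-5p was 15.3%, and with whole-number values only that of let-7e-5p was 5.38%. The settings of whole-number values and of 16 to 27 nt also restrict the denominator. All reads of miR-99b-5p had whole-number values, against 84.8%, 84.6% and 86.3% of the mapped reads of libraries 1, 2 and 3. Apart from the denominators, the cause of these differences was not tested.

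Leaving out each library moved no value by more than the SD. With 3 libraries the mean of any 2 cannot differ that much from the mean of all, so this outcome was fixed in advance. The ranges were 29821 to 33888 RPM for miR-99b-5p, 320.2 to 416 RPM for let-7e-5p, where the lowest value is without library 2, and 6236 to 6730 RPM for miR-125a-5p. The depth limits the rare forms, since let-7e-3p and miR-125a-3p had 164 to 276 reads per library, the offset fragment of let-7e 32, 65.3 and 62.25, and the +1 form of let-7e-3p 15, 19 and 10.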
